A study of Homo sapiens with 4 samples.

Results

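The chromatin at the genes of the 4 Notch receptors, NOTCH1, NOTCH2, NOTCH3 and NOTCH4, was described from ATAC-seq peaks of human pancreatic progenitors grown with or without the BET inhibitor I-BET151. Overlapping peaks of the 4 libraries were merged, and every merged region that touched a receptor gene body or the 20 kb on either side of it was taken, which gave 34 of 164301 regions. NOTCH1 held 10 of them, NOTCH2 4, NOTCH3 12 and NOTCH4 8. Position relative to these genes alone chose among the merged regions, each of which needs a called peak in some library. The genes themselves were chosen with earlier results of these data known.

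The cells were pancreatic progenitors differentiated from MEL1, an established human embryonic stem cell line, which the study's methods list as MEL1 INS GFP/W, a line with a GFP reporter at the insulin gene. All of them were kept in EF6 medium, a DMEM and B27 base that contains EGF (50 ng/ml), bFGF (10 ng/ml) and the TGFβ receptor inhibitor 616452 (10 μM). The DMSO group received DMSO alone, and the I-BET151 group received 1 μM I-BET151 for 7 days, which displaces BET proteins from acetylated histones. There were 2 libraries per group, each from 50000 cells of the same line, and the labels do not say whether they came from separate differentiations, so the spread between them may be technical. ATAC-seq inserts adapters into open DNA with the Tn5 transposase, and a peak marks a stretch where inserted reads pile up above the local background. In a bulk culture, a change in the share of cells of some type cannot be told apart from a change within each cell.

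Notch receptors are single-pass membrane proteins that are cut on their way to the cell surface and bind Delta and Jagged ligands on a neighbouring cell. Ligand binding leads to further cleavage by ADAM proteases and γ-secretase, and the freed intracellular domain enters the nucleus, where it joins the DNA-binding protein RBPJ and a Mastermind coactivator to switch on repressors of the HES and HEY families. In the developing pancreas this pathway holds progenitors in an undifferentiated state and restrains NEUROG3, the transcription factor that starts the endocrine programme.

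The DNA of 6 of the regions is shown because the comparisons below turn on them. They are the NOTCH1 promoter and the strongest gained intronic regions of NOTCH1 and NOTCH2, called only in the I-BET151 libraries, together with a gained exon region and a lost intron region of NOTCH3. Each sequence is hg38, read 5′ to 3′ on the minus strand, which is the strand that all 4 receptor genes are transcribed from, and none overlaps an annotated UTR. Capitals mark an RBPJ core (TGGGAA), a SOX core (ACAAT, here on the other strand as ATTGT) or a GC box (GGGCGG). The NOTCH1 promoter is chr9:136546049-136546298, the 250 bases before the transcription start site (TSS). The others are the 201 bases around the highest summit: NOTCH1 region 6 at chr9:136520202-136520402, NOTCH1 region 7 at chr9:136526305-136526505, NOTCH2 region 2 at chr1:119948746-119948946, NOTCH3 region 6 at chr19:15177539-15177739 and NOTCH3 region 7 at chr19:15195455-15195655.
NOTCH1 promoter: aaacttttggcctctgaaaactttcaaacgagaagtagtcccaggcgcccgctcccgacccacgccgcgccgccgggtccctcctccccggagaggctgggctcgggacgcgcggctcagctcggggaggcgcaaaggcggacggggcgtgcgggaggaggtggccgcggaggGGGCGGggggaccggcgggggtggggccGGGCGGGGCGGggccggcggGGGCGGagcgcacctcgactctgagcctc
NOTCH1 region 6: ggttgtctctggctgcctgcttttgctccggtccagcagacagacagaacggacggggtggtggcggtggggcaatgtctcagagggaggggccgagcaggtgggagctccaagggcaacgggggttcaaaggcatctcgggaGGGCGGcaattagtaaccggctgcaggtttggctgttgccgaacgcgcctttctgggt
NOTCH1 region 7: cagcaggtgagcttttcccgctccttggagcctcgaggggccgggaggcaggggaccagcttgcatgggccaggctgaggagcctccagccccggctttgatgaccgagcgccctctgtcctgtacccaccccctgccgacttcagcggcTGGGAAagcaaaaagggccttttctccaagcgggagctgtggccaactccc
NOTCH2 region 2: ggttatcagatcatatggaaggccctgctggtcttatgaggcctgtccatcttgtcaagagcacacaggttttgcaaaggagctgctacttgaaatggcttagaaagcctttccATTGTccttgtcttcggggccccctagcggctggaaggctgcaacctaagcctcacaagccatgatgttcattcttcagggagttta
NOTCH3 region 6: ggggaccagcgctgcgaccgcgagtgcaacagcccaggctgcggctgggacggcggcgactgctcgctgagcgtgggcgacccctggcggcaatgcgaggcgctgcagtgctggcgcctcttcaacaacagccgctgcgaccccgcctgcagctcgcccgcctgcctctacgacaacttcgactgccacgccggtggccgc
NOTCH3 region 7: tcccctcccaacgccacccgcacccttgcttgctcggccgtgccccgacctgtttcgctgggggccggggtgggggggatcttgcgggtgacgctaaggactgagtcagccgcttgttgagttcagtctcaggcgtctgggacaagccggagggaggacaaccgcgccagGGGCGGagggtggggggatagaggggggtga

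The NOTCH1 promoter was 76.0% G and C and held 4 GC boxes, 1 pair of which shared a base. The 201 bases of NOTCH3 region 6 lie in the coding sequence of exon 24. NOTCH2 region 2 was the least GC-rich of those shown, at 49.8%.

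The libraries were unequal in depth. The numbers of reads recovered from the peak statistics were 38.7 and 36.6 megareads (M) for DMSO replicates 1 and 2, and 12.5 M and 16 M for I-BET151 replicates 1 and 2. Peaks on the main chromosomes numbered 82568, 38295, 84995 and 111324 in the same order. At the 25627 regions called in every list, the summit pileup scaled to M reads was higher with I-BET151 by a median of 1.57 (log2) in replicate 1 and 2.25 in replicate 2. Each value compares the DMSO and I-BET151 libraries of the same number. A peak was also found within 1 kb of the TSS of 60.6% and 55.7% of protein-coding genes in DMSO and of 66.2% and 70.3% with I-BET151. Higher pileup in peaks was thus found throughout the I-BET151 libraries, and its part in each receptor's result was not tested. Of 10 promoters of pancreatic progenitor markers, 8 and 7 were called in DMSO and 9 in each I-BET151 library, with PTF1A called in none, whereas of 4 pluripotency promoters 0 were called in 3 libraries and 1 in I-BET151 replicate 2. Of 5 endocrine promoters between 0 and 2 were called in a library, of 4 liver promoters 1 or 2, and of 4 endothelial promoters between 0 and 2. Mesenchymal promoters (4 genes) moved with the groups, with 1 and 2 called in DMSO and 3 in each I-BET151 library (COL3A1 in none), and their part in the results was not tested.

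A region was called gained where both I-BET151 lists and neither DMSO list held a peak, and lost in the reverse case. Of the 34 receptor regions, 9 were gained (26.5%) against 17.0% of all regions and 16.3% of those within 20 kb of a protein-coding gene, and 2 were lost (5.88%) against 2.37%. A further 7 were called in all 4 lists and the other 16 in some other combination, 12 of them in 1 list. The gained regions were divided unevenly: 5 lay at NOTCH1, 2 at NOTCH2, 2 at NOTCH3 and 0 at NOTCH4, while both lost regions lay at NOTCH3. Without DMSO replicate 2, which has the shortest list, 7 regions were lost, 4 at NOTCH3, 2 at NOTCH1 and 1 at NOTCH4. A lost call then needs only a single DMSO list, which loosens it for every region, and the share over all regions at that setting is not given. Whether the receptors differ from other genes was not tested, since regions of a gene share their libraries and are not replicates. The libraries called 18 and 10 of the 34 regions in DMSO and 22 and 22 with I-BET151. With each list cut to the same number of peaks, the strongest by p-value, 4 of 17 regions were gained, all at NOTCH1, and 1 was lost, beside 9.19% gained and 5.85% lost of all regions at that setting.

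**Figure D1:**
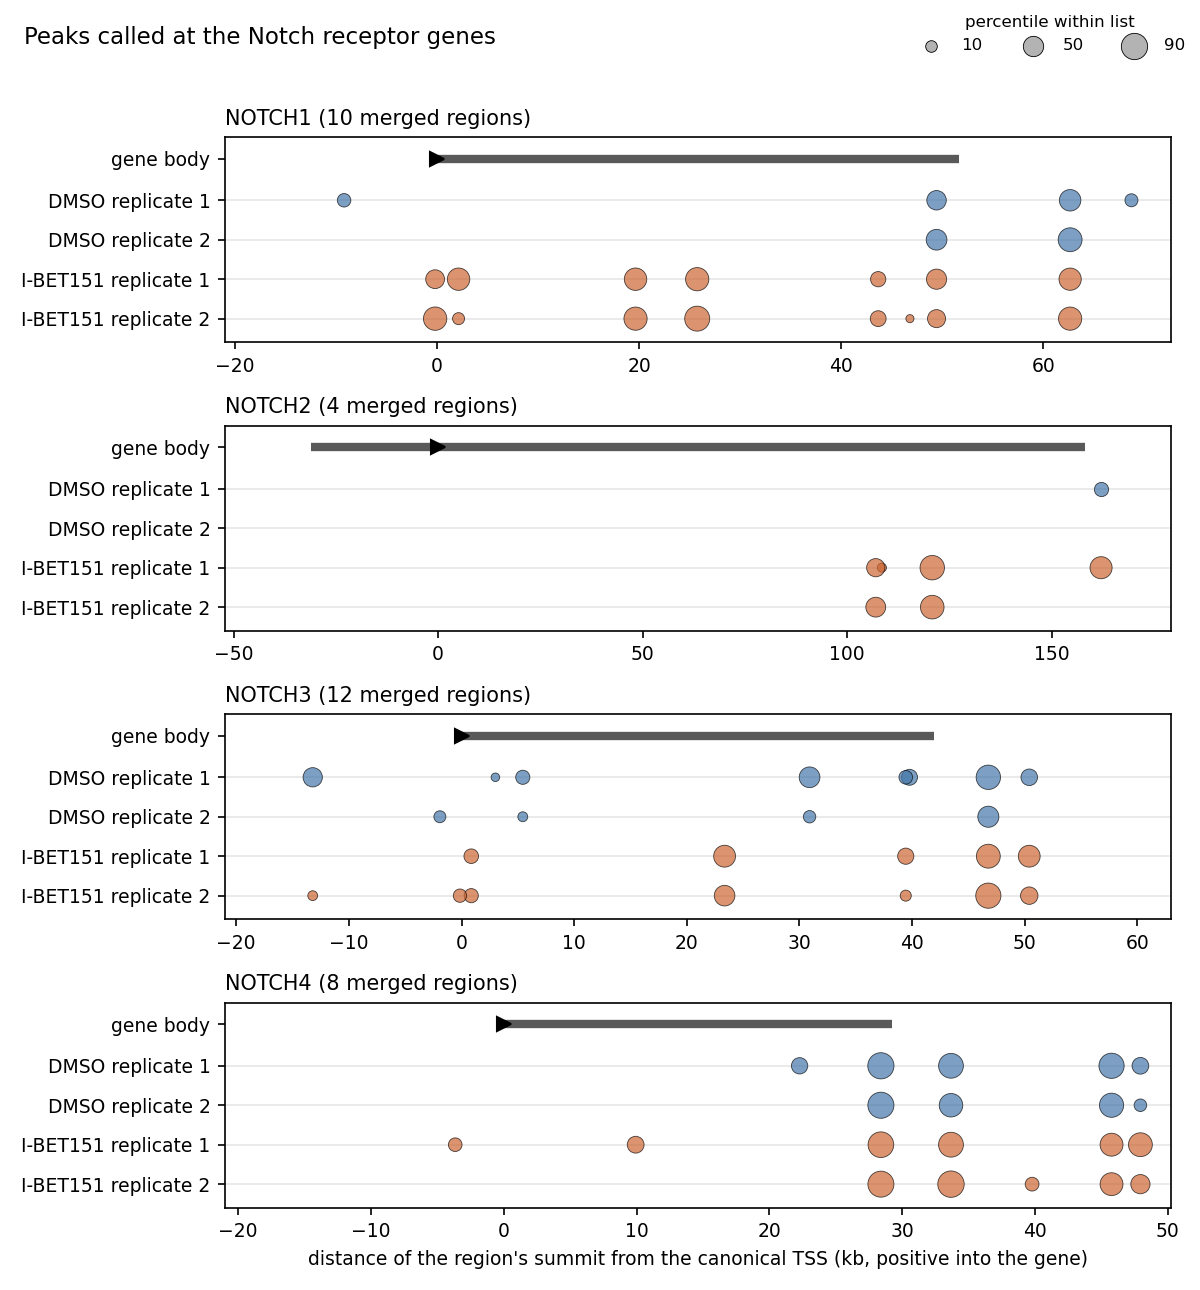
Peaks at the 4 receptor genes. The x axis gives the distance of each merged region's summit from the canonical TSS in kb, positive into the gene, over the gene body (grey bar, TSS as a black arrowhead) and 20 kb on either side. Each row is a library, blue for DMSO and orange for I-BET151, and a larger dot is a higher percentile of fold enrichment within that library's list. The dots at the NOTCH1 start and over most of its body are orange alone, the NOTCH2 gene has none over its first part, and most NOTCH4 dots lie beyond the end of the gene.

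NOTCH1 (ENSG00000148400, chr9:136494433-136546048, minus strand) encodes a receptor that many tissues use in cell fate choice. All 5 of its gained regions lay inside the gene or at its start, and none touched the promoter of another protein-coding gene. For comparison, 4.78% of 20033 protein-coding genes had 5 or more gained regions, and 1.38% of the 795 genes with 10 regions (11 genes) did.

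The region at the NOTCH1 promoter (region 9, chr9:136545770-136546551) had its summit at −196 bp from the TSS, that is upstream of it. It was absent from both DMSO lists, and its fold enrichment, which is the pileup at the summit over the local background, was 5.2 in I-BET151 replicate 1 and 7.8 in replicate 2. These rest on 21 and 51 piled-up reads and rank at percentiles 41.6 and 69.3 of their lists. So the promoter was a middling peak in replicate 1 and ranked higher in replicate 2. Over all genes, 7.19% of 20033 promoters were gained in this way, 53.0% were called in every list and 26.2% in none.

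The deeper intronic regions ranked higher than the promoter in replicate 1. Region 6, in intron 4 and 25746 bp from the TSS (chr9:136520007-136520538), had the highest fold of the NOTCH1 gained regions, at 6.9 and 9.4 (19 and 38 reads, percentiles 68.5 and 80.6). Region 7, in intron 2 (chr9:136526072-136527031), had 6.4 and 7.7 (20 and 40 reads, percentiles 63.1 and 68.2) and carries the RBPJ core shown above. Region 8, also in intron 2 and 2125 bp from the TSS (chr9:136543821-136544169), had 6.4 in replicate 1 but 3.8 in replicate 2, where it stood at percentile 11.6 of the list. Both libraries ranked regions 6 and 7 above their list medians, but region 8 only in replicate 1.

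Region 5 lay in exon 28, in coding sequence (chr9:136501716-136502565). Its fold was the lowest or next to lowest of the gained NOTCH1 regions, at 4.4 and 4.7 (percentiles 24.2 and 26.8), yet its pileup was the highest, at 39 and 65 reads, over a local background of 8.0 and 13.0 reads. Among all gained regions, the 5 NOTCH1 regions ranked by fold from the 21.2 to the 78.9 percentile in replicate 1 and from 7.40 to 89.9 in replicate 2, so they spread over most of the range.

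NOTCH1 also had 2 regions called in every library, at higher fold with I-BET151 but at overlapping percentiles. Region 3, in the coding sequence of exon 34 (chr9:136496055-136497652), was called in all 4 libraries, with folds of 3.8 and 4.1 in DMSO and 5.5 and 5.2 with I-BET151. Its percentiles were 45.3 and 52.7 against 49.2 and 37.5, which overlap. Region 2, at the promoter of SEC16A downstream of the gene (chr9:136482842-136484115), was at percentiles 57.2 and 72.9 in DMSO and 62.1 and 68.2 with I-BET151, which overlap too. The last 3 NOTCH1 regions were each called in 1 list, 2 in DMSO replicate 1 and 1 in I-BET151 replicate 2.

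NOTCH2 (ENSG00000134250, chr1:119911553-120100779, minus strand), a receptor known from the embryonic pancreatic ducts, had 4 regions, of which 3 lay in the downstream part of its 189 kb gene body and 1 beyond its end. Region 2, in intron 16 (chr1:119948573-119949096), was gained with folds of 7.8 and 8.0, from 17 and 22 reads, at percentiles 76.7 and 70.9. Region 4, in intron 11 (chr1:119962339-119962905), was gained with 5.0 and 5.9, from 14 and 21 reads, at percentiles 38.6 and 47.2. Both libraries placed region 2 above region 4. The other regions were weaker in support: region 1, downstream of the gene, had 12 reads in DMSO replicate 1 and 11 in I-BET151 replicate 1, and region 3 had 8 reads in I-BET151 replicate 1 alone.

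No list held a peak at the NOTCH2 promoter. The nearest region inside the gene ended 107 kb from the canonical TSS, and no merged region followed for 213 kb. Much of this stretch is repeated in the genome. Of the 64-base stretches within 1 kb of the NOTCH2 TSS, 74.0% occur elsewhere in hg38 as an exact copy, against 0% at the promoters of NOTCH1, NOTCH3 and NOTCH4. The share was 65.8% over the NOTCH2 window beyond its last region and 0.382% over the window up to that region. The promoters of the partial copies NOTCH2NLR, NOTCH2NLA, NOTCH2NLB and NOTCH2NLC were called in no list, and 0 regions lay within 20 kb of any of them. The part of these copies in the missing NOTCH2 promoter peak was not tested. The regions of NOTCH1, NOTCH2 and NOTCH3 were all free of such copies.

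NOTCH3 (ENSG00000074181, chr19:15159038-15200995, minus strand), best known from vascular smooth muscle, was the only receptor with regions in both directions. Region 9 (chr19:15199958-15200611), in intron 1 with its summit 865 bp after the TSS and so at the promoter, was gained with folds of 4.3 and 4.3 from 14 and 22 reads. It stood at percentiles 21.3 and 19.6 of its lists, among the weaker peaks of both libraries. A neighbouring peak at the promoter (region 10) was listed in I-BET151 replicate 2 alone, with 18 reads. Region 6, in exon 24 (chr19:15177353-15177942), was gained with folds of 6.2 and 6.2 from 15 and 22 reads, at percentiles 59.5 and 51.7.

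The lost NOTCH3 regions were weak in DMSO replicate 2. Region 5, in the coding sequence of exon 28 (chr19:15169874-15170281), had folds of 3.9 and 3.1 from 23 and 17 reads, at percentiles 52.5 and 13.0. Region 7, in intron 2 (chr19:15195112-15195719), had 3.2 and 2.8 from 26 and 21 reads, at percentiles 19.4 and 4.77. Per M reads, region 5 had 0.595 and 0.464 in DMSO and region 7 had 0.672 and 0.574, and all of these lie under the level that the shallower I-BET151 libraries needed for a peak at the highest background listed at this gene (0.722 and 0.75). At lower background the same libraries listed NOTCH3 peaks at 0.642 (replicate 1) and 0.50 (replicate 2), so whether a peak of the DMSO level would have been listed depends on a background that is not known at these regions. Their absence from the I-BET151 lists thus does not show a fall in pileup per M reads. If the background was no higher than that highest one, I-BET151 exceeded DMSO by at most 0.28 and 0.69 (log2) at region 5. These bounds, too, compare libraries of the same number. At region 7 the bounds were 0.10 and 0.39. All of these lie under the median rise of 1.57 and 2.25 at the regions called in every list. Region 2 of NOTCH3, downstream of the gene (chr19:15153683-15154444), was called in all libraries at percentiles 76.3 and 54.7 in DMSO and 72.7 and 82.0 with I-BET151.

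NOTCH4 (ENSG00000204301, chr6:32194843-32224067, minus strand), a receptor mainly of endothelium, showed neither gained nor lost regions, and its promoter was called in no list. Its strongest region by fold in every list but I-BET151 replicate 2 was region 5 (chr6:32195455-32196803), in exon 30 at the end of the gene. In I-BET151 replicate 2, region 4 was higher, with a fold of 11.7 at percentile 91.2. Region 5 had folds of 6.1 and 6.7 in DMSO and 9.3 and 10.9 with I-BET151. Its percentiles were 89.6, 88.7, 85.4 and 88.1, so its place in the lists was nearly level. The other regions called in all libraries lay at promoters of neighbouring genes: AGPAT1 (region 1), RNF5 (region 2) and PBX2 (region 4). Thus 3 of the 4 NOTCH4 regions called in every list lay at the canonical TSS of another gene. A region at the AGER promoter was listed in 1 library, and the other 3 NOTCH4 regions in 1 library each.

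**Figure D2:**
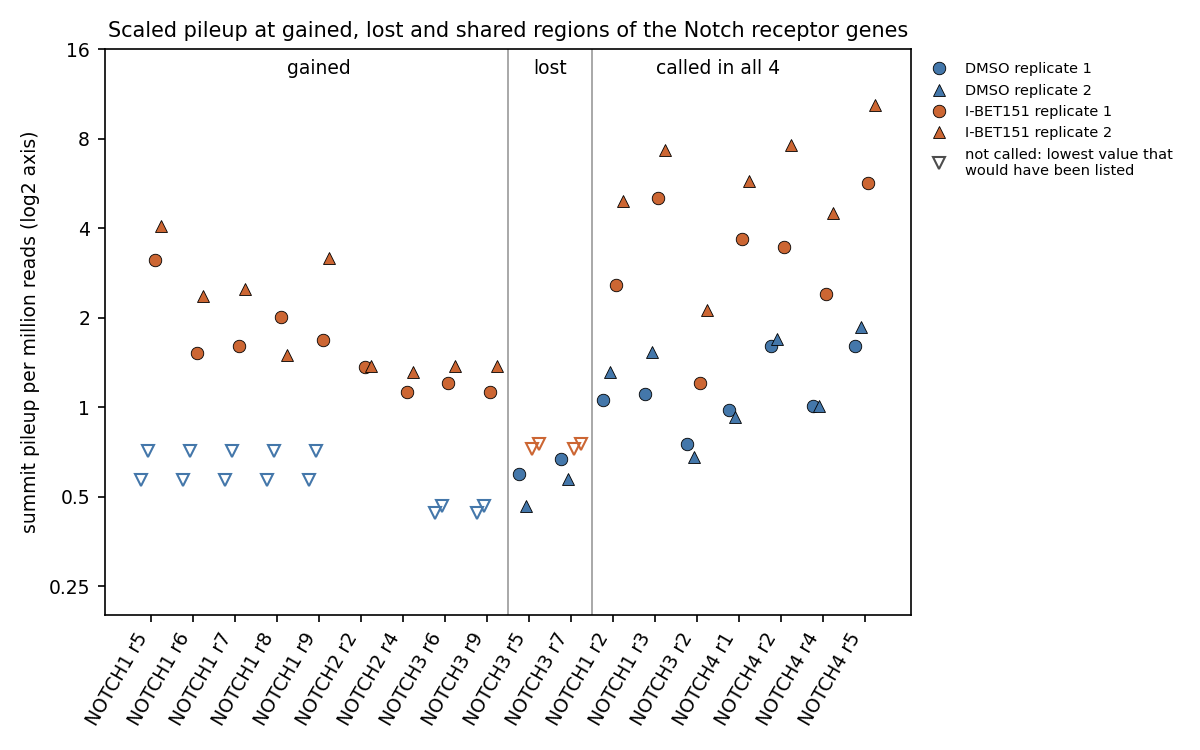
Pileup at the summit per M reads (log2 axis) for the 9 gained, 2 lost and 7 shared receptor regions (r is the region's number). Filled circles and triangles are replicates 1 and 2, blue for DMSO and orange for I-BET151, and open triangles mark, for a library without a call, the lowest value it would have listed at the highest background of that gene (not drawn for NOTCH2). Every shared receptor region lies higher with I-BET151 in both replicates, and the lost regions in DMSO lie under the open triangles of I-BET151.

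How large a difference the gained calls imply was bounded from the pileup. Each bound and each median compares libraries of the same number, and crossed comparisons are not given here. The smallest pileup that DMSO replicates 1 and 2 would have listed at the highest background seen at the gene was 22 and 26 reads at NOTCH1 and 17 and 17 at NOTCH3. No such limit was used for NOTCH2, where DMSO replicate 2 listed no peak and the local background is not known. If the DMSO background at a region was no higher than that, the NOTCH1 promoter was higher with I-BET151 by at least 1.57 (log2 of pileup per M reads) in replicate 1 and 2.17 in replicate 2, beside the median of 1.57 and 2.25 at all shared regions. NOTCH1 region 5 was higher by at least 2.46 and 2.52, the only gained region of these 2 genes whose bound lay above that median in both replicates. For NOTCH3 region 9 the bounds were 1.35 and 1.57. At the other gained regions of NOTCH1 and NOTCH3 the bound lay at or under that median in at least 1 replicate, so their calls alone do not show a difference beyond it, and do not exclude one.

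The 7 regions called in all libraries could be compared by rank. Within each library, percentiles of fold enrichment were ranked again among the 25627 shared regions, turned into normal scores and fitted with limma. The differences below are therefore on another scale than the quoted percentiles, which rank a peak among its whole list, and the 2 can diverge. Of the shared regions, 875 (3.41%) rose and 503 (1.96%) fell at a Benjamini-Hochberg adjusted p under 0.05. That balance turned under other scalings, with 174 up and 1188 down on median-centred pileup per M reads, and 8 up and 27 down on ranks by −log10 p. Among the receptor regions, 0 rose and 0 fell, and 1 had an unadjusted p under 0.05 in this fit. That was the RNF5 promoter region at NOTCH4, with a difference of −0.87 ± 0.38 normal-score units (SE) and a limma adjusted p of 0.171. The NOTCH1 exon region 3 had −0.69 with an adjusted p of 0.311, the NOTCH4 exon region 5 had −0.49 with 0.452, and the SEC16A promoter region at NOTCH1 had −0.48 with 0.501. The largest rise was at the AGPAT1 promoter region at NOTCH4, with percentiles of 31.0 and 13.4 in DMSO against 72.6 and 43.9, which do not overlap, and a difference of 0.52 ± 0.43 with an adjusted p of 0.485. The PBX2 promoter region had 0.17 with 0.824, and the NOTCH3 region 2 had 0.01 ± 0.38 with 0.988. A p above the threshold does not show that the ranks were the same. On pileup per M reads without ranks, all 7 rose, as did 24614 of the 25627 shared regions. After that shift was removed, 0 rose and 0 fell. The lowest limma adjusted p was then 0.0606, at NOTCH3 region 2, for a fall of −0.77 ± 0.20 (log2) relative to the median.

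To set whole genes side by side, a locus score was taken as the mean percentile of fold over a gene's regions, with 0 for a region without a call. The score of NOTCH1 was 13.4 and 12.6 in DMSO and 37.2 and 36.2 with I-BET151, a difference of 23.7 percentile points between group means of 13.0 ± 0.630 and 36.7 ± 0.664 (SD, n = 2). A gained region counts as 0 in both DMSO libraries by definition, so this difference largely restates the gained calls and is not separate support. The 2 NOTCH1 regions called in every library had overlapping percentiles. NOTCH2 had 4.98 and 0 in DMSO and 44.6 and 29.5 with I-BET151, a difference of 34.6 over a wider spread (SD 3.52 and 10.7, n = 2) and only 4 regions. Its groups, like those of NOTCH1, did not overlap, and its gained regions count as 0 in DMSO in the same way.

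The scores of NOTCH3 were 22.4 and 6.98 in DMSO and 20.1 and 18.1 with I-BET151, so that its groups overlapped and the difference of 4.41 was smaller than the DMSO spread (SD 10.9, n = 2). Without DMSO replicate 2 the difference was −3.59, and without DMSO replicate 1 it was 14.5. NOTCH4 had 38.9 and 30.9 in DMSO and 44.1 and 38.4 with I-BET151, which overlap, and a difference of 6.35 (SD 5.65 and 4.02, n = 2). Without the regions at other genes' promoters, the NOTCH4 difference was 1.85 over 4 regions and the NOTCH1 difference 26.3 over 9. With 2 against 2 libraries no exact permutation test can give a p below 0.33, and none was run on these scores.

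**Figure D3:**
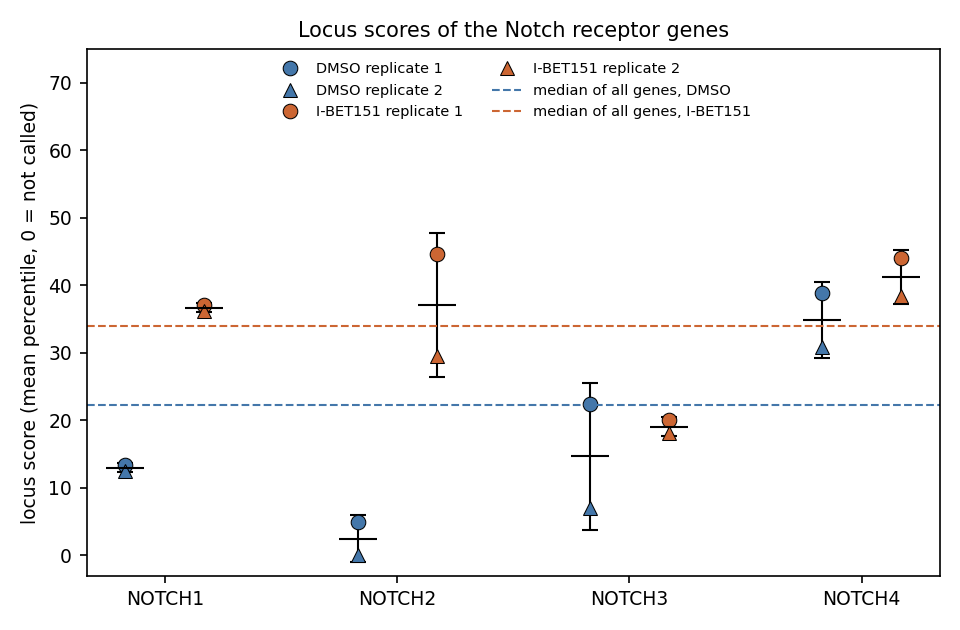
Locus scores (mean percentile of fold enrichment over a gene's regions, y axis) of the 4 receptors. Circles and triangles are replicates 1 and 2, black bars the mean ± SD of 2 libraries, and dashed lines the median over all protein-coding genes with a region, 22.3 in DMSO and 34.0 with I-BET151. NOTCH1 and NOTCH2 stand under the DMSO median and near the I-BET151 one, NOTCH4 above both, and NOTCH3 under both on average.

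Most genes had higher scores with I-BET151: among 18871 protein-coding genes with a region, the median difference was 10.7 (quartiles 3.19 and 18.5) and 82.8% were above 0. Against these, 86.1% of genes had a smaller difference than NOTCH1, 95.9% than NOTCH2, 28.2% than NOTCH3 and 34.3% than NOTCH4. Between libraries of the same replicate number, the differences were 39.7 and 29.5 for NOTCH2, 23.7 and 23.7 for NOTCH1, 5.20 and 7.5 for NOTCH4, and −2.27 and 11.1 for NOTCH3. Both NOTCH4 values lie between those of NOTCH3, so the order of these 2 receptors is not resolved. In level, the order in DMSO was NOTCH4, NOTCH3, NOTCH1 and NOTCH2, with NOTCH3 and NOTCH1 overlapping. With I-BET151 it was NOTCH4, NOTCH2, NOTCH1 and NOTCH3, where NOTCH2 overlapped with both NOTCH4 and NOTCH1, the lower NOTCH4 library (38.4) stood just above the higher NOTCH1 library (37.2), and NOTCH3 was lower in both libraries. With the lists cut to equal numbers of peaks, the median over all genes was −0.286, and the receptors' differences were 2.66 for NOTCH1, 24.1 for NOTCH2, −4.37 for NOTCH3 and −12.7 for NOTCH4. At that setting, which leaves 7 regions at NOTCH1, 4 of them were gained.

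**Figure D4:**
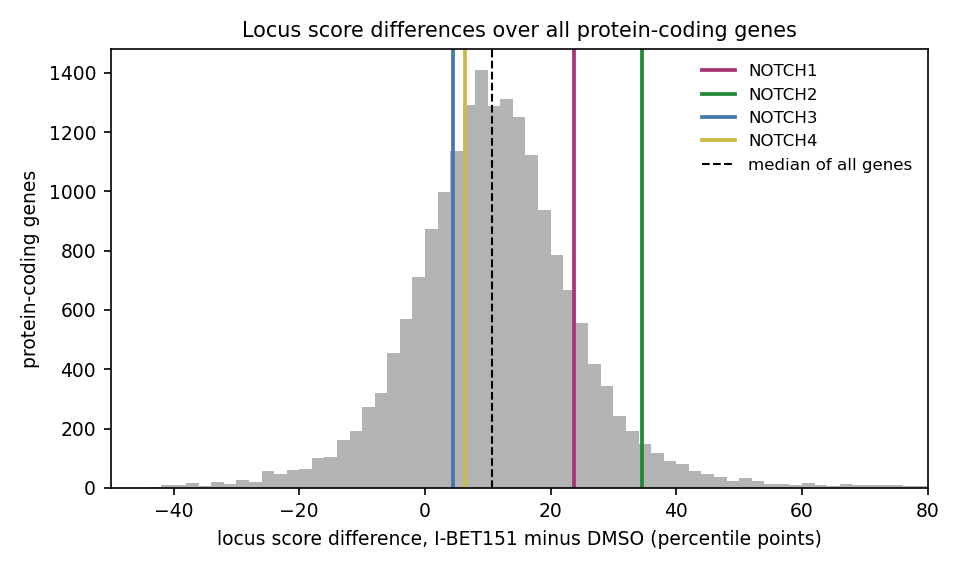
Locus score difference (I-BET151 minus DMSO, percentile points, x axis) over 18871 protein-coding genes (y axis, number of genes per bin), with coloured lines for the receptors and a dashed line for the median of 10.7. NOTCH1 (23.7) and NOTCH2 (34.6) lie right of the median, and NOTCH3 (4.41) and NOTCH4 (6.35) left of it.

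The genes whose scores over the 4 libraries were nearest to those of a receptor, by Euclidean distance among genes with at least 5 regions, were STOM (1.69), LHX9 (1.70) and GNB3 (1.72) for NOTCH1. For NOTCH2 they were FHL5 (1.48), MARK1 (3.89) and MDK (6.84), for NOTCH3 NME4 (1.72), CDC42BPB (2.54) and CBX2 (2.82), and for NOTCH4 H3-3B (2.60), SLC25A20 (2.67) and IARS2 (3.05). Each distance is over 4 values, and between 13198 and 13205 genes were compared with each receptor.

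In what the rule did not use, the regions of NOTCH1, NOTCH3 and NOTCH4 were GC-rich. Those of NOTCH2 were near the median GC content of 48.3% over all regions. The median GC content of the 201 bases around the summit was 64.2% at NOTCH1, 49.8% at NOTCH2, 65.2% at NOTCH3 and 61.2% at NOTCH4. For the 9 gained receptor regions it was 65.7%, whereas it was 45.3% over all gained regions and 55.7% over those called in every list. The gained receptor regions had a median width of 590 bp, against 483 bp for all gained regions, and the shared ones 1210 bp against 830 bp. No test was made over the 9 regions, which come from 3 genes.

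Motif letters were searched on both strands of the same 201 bases. The RBPJ core TGGGAA was found in 6 of the 34 receptor regions and in 19.7% of all regions, and in 1 of the 9 gained ones, NOTCH1 region 7. The GC box GGGCGG was found in 12 of 34, against 10.6% of all regions and 32.3% of those called in every list. The SOX core ACAAT was in 7 (28.4% of all regions), the homeodomain core TAATTA in 2 (4.67%) and the GATA core AGATAA in 1 (14.2%). The FOXA letters TGTTTAC and the ONECUT letters ATCAAT were in 0 (4.63% and 9.21% of all regions), and the CTCF consensus was in 1, NOTCH3 region 1 (1.89%). Each match describes letters only.

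The other genes of the pathway were counted by their role. The ligands DLL1, DLL3, DLL4, JAG1 and JAG2 had 37 regions within 20 kb, of which 10 were gained and 1 was lost (17.0% and 2.37% over all regions), and the score was higher with I-BET151 for 5 of 5, by a median of 19.7. JAG1 went from a mean of 13.8 to 39.2 (difference 25.4), DLL1 from 12.8 to 32.9 (20.1) and DLL4 from 10.2 to 29.9 (19.7), and DLL4 was the ligand whose promoter was gained. The 14 genes of receptor maturation and cleavage, which trim, glycosylate and cut the receptor, had 94 regions. Of these, 10 were gained (10.6%) and 2 lost (2.13%), and the median difference was 8.0. NCSTN, a subunit of γ-secretase, had 23.4, the protease gene FURIN 20.2 and the glycosyltransferase gene MFNG 18.6, while LFNG was the member with a gained promoter. In this list, 10 of 14 promoters were called in every library.

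Among the 8 nuclear cofactors, 43 of 175 regions were gained (24.6%) and 2 lost (1.14%), against 17.0% and 2.37% of all regions. Their median difference was 15.4. RBPJ, the DNA-binding partner of the receptor's intracellular domain, went from 25.9 to 45.4, and the cofactor SNW1 from 71.6 to 90.8. The 9 genes of turnover and inhibition had 16 gained (20.5%) and 0 lost of 78 regions and a median difference of 16.2. FBXW7, which marks the intracellular domain for degradation, had 19.7, the ubiquitin ligase gene DTX4 18.6 and NUMBL, a relative of the Notch inhibitor NUMB, 17.8.

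The target repressors carry the transcriptional response to Notch. Of 39 regions at the 6 HES and HEY genes 4 were gained (10.3%) and 3 lost (7.69%). The score was higher for 4 and lower for 2, and the median difference was 5.28, under that of all genes. HES4 went from 14.0 to 30.7 and HES5 from 30.4 to 46.7, while HEY1 went from 30.9 to 23.7. Over the 42 genes together, 83 of 423 regions (19.6%) were gained and 8 (1.89%) lost, near the 17.0% and 2.37% of all regions. The score was higher for 37 and lower for 5, beside 82.8% of all genes with a higher score. The median difference was 14.8. These lists have no test of their own. The median over the 42 genes lies inside the quartiles of all genes (3.19 and 18.5), while that of the ligands (19.7) lies above them.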

How the data were processed

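Peak lists from 4 ATAC-seq libraries of human pancreatic progenitors were analysed. Per the labels and the submitters' processing notes, the authors aligned reads to hg38 with Bowtie2 (2.2.5) and called peaks with MACS2 (2.1.2) in each library on its own, without a control. The deposited columns hold, for each peak, the fold enrichment (a ratio of summit pileup to local background), −log10 of the p-value and −log10 of the q-value. A further deposited score was not used. The lists reach down to a −log10 q between 1.30 and 1.33, a looser limit than the p-value stated in the methods (−log10 p of 5), and this p-value was tried too, a choice made with the data in view. MACS2 sets its shortest peak to the read extension, which was 200 bp in DMSO and I-BET151 replicate 1 but 233 and 256 bp in replicate 2 of each.

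Peaks on the main chromosomes were merged at an overlap of at least 1 bp, and genes were taken from GENCODE release 44. Promoters span 1 kb on each side of the canonical TSS. Since fold enrichment is (pileup + 1)/(background + 1) and p is a Poisson tail, pileup and background were solved for each peak, to within 0.01 in −log10 p for 100% of peaks. Read numbers were taken from the genome-wide background with a genome size of 2.7 Gb and scale with that size. Percentiles are ranks by fold within a list. A score over a gene's regions, 0 where a region was not called, is described without a test. A called region with 14 to 65 reads carries counting error that an SD over 2 libraries does not hold, and no interval was computed.

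Rank shifts were fitted with limma 3.58.1 (R 4.3.3) and Benjamini-Hochberg adjustment over all shared regions. This and the pileup step were tested on simulated data. Other steps used Python 3.11.15 with numpy 2.4.6, scipy 1.17.1, pandas 2.3.3 and matplotlib 3.10.9. Regions described singly were those at a receptor promoter and those gained, lost or called in all lists. For each pathway list up to 3 genes, those of largest absolute score difference, were named, and 1 of them is not reported here. Genes named for a gained promoter were chosen after their values were seen. The receptors and all lists were chosen with earlier results of these data known. Replicate numbers come from the labels only. The deviations of same-numbered libraries correlated at r = −0.143 over 25627 shared regions (regions are not independent), so the numbers were not taken to pair the libraries. The differences and bounds of scaled pileup still set same-numbered libraries side by side, so they depend on that choice. The settings varied were the threshold (a −log10 p of 10 or more), lists cut to equal length, 50% cover, gene bodies alone, ranks by −log10 p, scaled pileup, a replicate block and leaving out each library.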

Additional observations from a re-analysis of the deposited data

How the results depend on the processing

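There were 82 alternatives over the 8 results (counts, rank calls and score differences). Of these, 4 reversed the sign of a score difference, 18 were counted as changing a result and 60 as keeping it. The 60 did not all leave the value unchanged. They include a gained count of 6 against 9 at the stricter threshold and a NOTCH3 score difference of 1.53 against 4.41 by −log10 p. The 18 include a NOTCH1 score difference of 22.4 against 23.7 at the threshold of the methods. The split thus does not order the changes by size. The gained count of 9 of 34 was 6 of 17 at the stricter threshold (23.3% of all regions gained and 0.269% lost), 7 of 34 with 50% cover and 4 of 17 with equal numbers of peaks, where 9.19% of all regions were gained and 5.85% lost. The lost count of 2 was 0 at the stricter threshold, which neither lost region reaches in DMSO, and 1 with equal numbers of peaks. Leaving out a library gave 9 to 13 gained and 2 to 7 lost, the 7 without DMSO replicate 2, the shortest list. Fewer lists loosen the calls for every region. The shares over all regions are not given for these settings or for 50% cover, so those counts are not a result about the receptors. The score difference of NOTCH1 (23.7) was 16.1 at the stricter threshold, 2.66 with equal numbers of peaks, 34.0 by −log10 p, 36.1 over the gene body alone and 22.4 at the threshold of the methods, with 23.2 to 30.2 when a library was left out. That of NOTCH2 (34.6) was 24.1 with equal numbers of peaks and 45.9 at the threshold of the methods, and 32.1 to 42.2 without a library. That of NOTCH3 (4.41) was 19.4 at the stricter threshold and −4.37 with equal numbers of peaks, and ran from −3.59 (without DMSO replicate 2) to 14.5 (without DMSO replicate 1). That of NOTCH4 (6.35) was 16.1 at the stricter threshold, −12.7 with equal numbers of peaks and −0.43 over the gene body alone, where the neighbouring promoters drop out, and 2.36 to 11.8 without a library. The median over all genes moved as well, from 10.7 to 21.9 at the stricter threshold and to −0.286 with equal numbers of peaks. The causes of these changes were not tested.

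With the replicate block the rank fit called 0 receptor regions in either direction (lowest limma adjusted p = 0.261) and 985 regions up and 652 down among all shared regions, against 875 and 503 without it. The block thus changed no call among the receptor regions. The paired score differences were 23.7, 34.6, 4.41 and 6.35 for NOTCH1 to NOTCH4. They equal the unpaired ones by arithmetic, so they do not test the pairing, though they are among the 60 counted as keeping a result. A crossed pairing, added after seeing the data, gave 0 receptor calls and 1985 up and 1567 down among all regions. On scaled pileup 7 receptor regions rose, as did 24614 of 25627 regions, and after centring on the median, added after seeing the data, 0 did. The other fits, with a library left out included, called 0 of the receptor regions.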
